A study of Mus musculus with 6 samples.

Results

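Klf2, Klf4, Nos3, Piezo1 and Cav1 are genes through which endothelium senses and answers blood flow, and their transcripts were followed here in emerging blood cells of the mouse embryo. The set was taken by gene symbol from the annotated rows of each library's table, rows sharing a symbol being summed. All 5 genes were found among 47517 annotated symbols, and 4 of them, all but Cav1, were abundant enough to be tested. The cells came from C57BL/6 embryos at embryonic day 10.5 that carried a tdTomato reporter knocked into Hlf, which encodes a PAR bZIP transcription factor active in blood stem cells. They were sorted as positive for the reporter and for c-Kit, the stem cell factor receptor, and as lacking CD45, a phosphatase on the surface of mature blood cells. A group of 3 libraries represented cells of the embryo's caudal-half region (here the caudal cells) and another group of 3 cells of the yolk sac. Strain, reporter allele, stage and sorting gate were common to both, and the tissue is the only difference that the labels give. Each library was made from a lysate of 100 cells. The labels do not say how many embryos went into a library or whether replicates came from separate litters, so p-values measure only the spread between these libraries, which may be technical.

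Blood flowing over endothelium exerts shear stress, which the cells sense through channels such as Piezo1 and through complexes at their junctions. A kinase cascade running through MEKK3 and ERK5 then acts on MEF2 transcription factors, which switch on Klf2 and Klf4. These Krüppel-like factors in turn raise Nos3, the endothelial nitric oxide synthase, while caveolin-1, the product of Cav1, coats the membrane pits called caveolae, where it binds and restrains that enzyme. In the embryo, the first blood stem cells arise from endothelium of the dorsal aorta, where flow and nitric oxide are known to promote their emergence, and the yolk sac vasculature makes blood progenitors of its own.

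Levels are given in TPM, an abundance scaled for transcript length and library size, so genes can be compared within a library. The total read depth is unknown. Each library held 15644 to 16975 symbols at 1 TPM or more. All 11 blood stem and progenitor markers listed, among them Kit and Runx1, were detected in every library, with a summed level (Kit, Hlf and Ptprc, on which the gate rested, included) of 524 to 777 TPM in the caudal cells and 219 to 567 TPM in the yolk sac. Endothelial markers were detected too, and 16 of them summed to 586 to 768 TPM in the caudal cells and 174 to 372 TPM in the yolk sac. Yolk sac replicate 2 stood apart. Its 14 markers of yolk sac endoderm, the epithelium that surrounds the yolk sac vessels, summed to 14384 TPM, against 840 TPM in replicate 1, 13.8 TPM in replicate 3 and 21.1 to 32.3 TPM in the caudal cells. Its 9 red cell markers summed to 1603 TPM, against 6.61 to 19.2 TPM elsewhere. Macrophage markers summed to 17.3 to 26.1 TPM in the caudal cells and 22.3 to 27.5 TPM in the yolk sac. Of 9 such markers 3 were tested, Csf1r and Cd68 overlapped, and Mrc1, at 0.124 to 0.242 TPM in the caudal cells and 2.53 to 3.12 TPM in the yolk sac, passed limma's test (adjusted p = 0.0192), having met the filter on low values through the yolk sac alone. C1qa, another of the 9, was at 0 in every library. Megakaryocyte markers summed to 199 to 245 TPM in the caudal cells and 105 to 256 TPM in the yolk sac. The 10 smooth muscle and mesenchyme markers summed to 43.4 to 55.6 TPM in the caudal cells and 4.32 to 5.93 TPM in the yolk sac. This came largely through Acta2 (26.1 to 36.6 TPM against 1.07 to 2.57 TPM), with Tagln (3.15 to 7.07 against 0.962 to 1.17 TPM) and Myl9 (5.50 to 12.7 against 0 to 0.402 TPM). The other members overlapped between tissues, among them the mesenchyme gene Pdgfrb (1.09 against 1.02 TPM on average). The fibroblast collagen gene Col3a1 was at 1.25 TPM in caudal replicate 1 and at most 0.0253 TPM elsewhere. The part of such cells in the tissue differences was not tested. The differences of the tested flow genes and the counts of positive genes in each pathway list are also given without yolk sac replicate 2.

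Klf2 was among the most abundant transcripts of both tissues, Klf4 and Piezo1 were moderately abundant, Nos3 was low and Cav1 was close to absent. Between tissues, Nos3 had the largest difference of the 4 tested genes, about 3.55-fold toward the caudal cells on the log2(TPM + 1) scale, followed by Piezo1 at 1.55-fold, while the values of Klf2 and Klf4 overlapped. None of the 4 passed the test over all genes (limma, a linear model with moderated variances, adjusted p at or above 0.05). Of all 16436 genes tested, 0.347% passed as higher in the caudal cells and 0.0365% as higher in the yolk sac. At an unadjusted p under 0.05 the count was 2 of the 4, Nos3 and Piezo1, against 9.63% of all genes tested. Nos3 would have met the filter on low values through the caudal cells alone. Without yolk sac replicate 2 the unadjusted limma p was 0.000917 for Nos3 and 0.0936 for Piezo1. In bulk RNA, fewer cells of a type and less RNA per cell cannot be told apart.

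**Figure D1:**
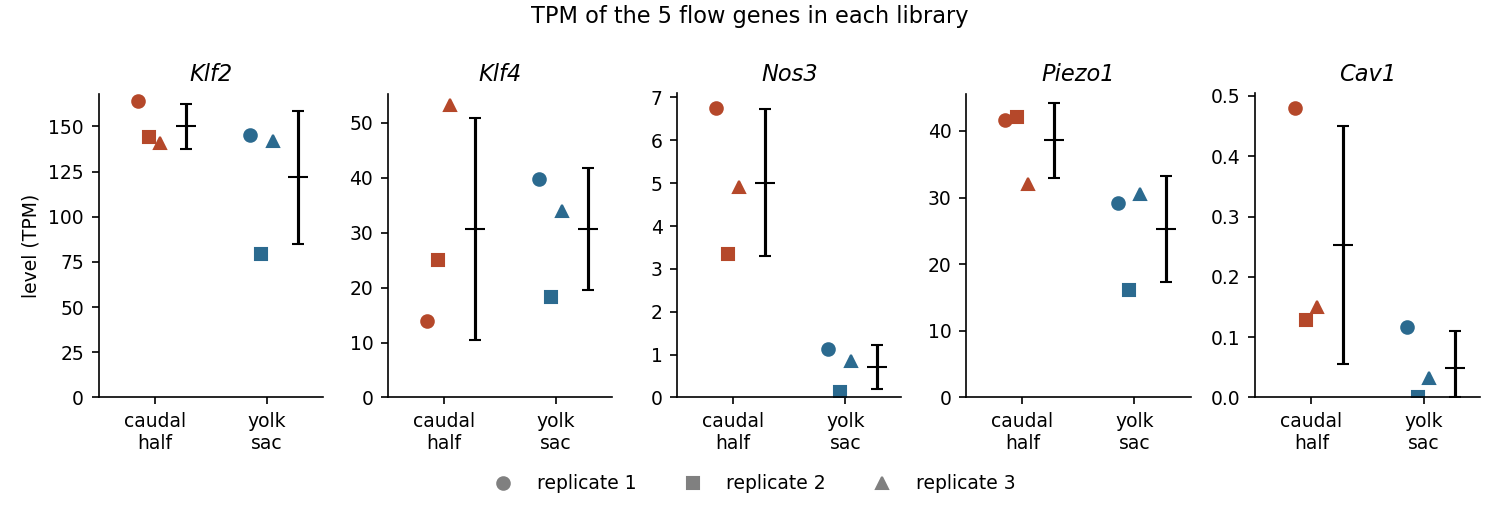
TPM (linear axis from 0, scaled separately for each gene) of the 5 flow genes in each of 3 caudal and 3 yolk sac libraries. Symbols mark the replicates and the black bar the mean with 1 SD (n = 3), cut off at 0. Nos3, Piezo1 and Cav1 are higher in every caudal library than in any yolk sac library, and yolk sac replicate 2 is the lowest yolk sac library in all 5 panels.

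Piezo1 encodes a stretch-activated cation channel of the plasma membrane. Its level was 41.6, 42.1 and 32.1 TPM in caudal replicates 1, 2 and 3 and 29.2, 16.2 and 30.5 TPM in yolk sac replicates 1, 2 and 3. The tissues did not overlap, but the lowest caudal library lay just above the highest yolk sac library. A gap of this kind toward the caudal cells was found for 11.5% of all tested genes. The log2 difference was 0.63 (SE 0.27, 95% interval 0.02 to 1.24), with a limma adjusted p of 0.505 and an exact two-sided permutation p of 0.1, the smallest that 3 against 3 libraries allow. Without yolk sac replicate 2, the difference was 0.35 (SE 0.18, 95% interval -0.08 to 0.78, limma adjusted p = 0.65). Piezo1 (ENSMUSG00000014444.16) lies on chromosome 8 (122481698 to 122551329, minus strand, GRCm38), and 24.6% of its exonic bases also lie in exons of Ctu2, a tRNA-modifying enzyme gene on the opposite strand. Ctu2 was at 9.49 to 21.6 TPM in the caudal cells and 11.1 to 23.0 TPM in the yolk sac, and whether the authors' counting used strand is not given in the sources used here.

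Klf2 and Klf4 are zinc finger transcription factors that keep endothelium quiescent, and Klf2 also acts in lymphocytes and other blood cells. The Klf2 level was 164, 144 and 141 TPM in caudal replicates 1, 2 and 3 and 145, 79.6 and 142 TPM in yolk sac replicates 1, 2 and 3. The libraries other than yolk sac replicate 2 thus lay close together, and that library was the low one. Klf2 ranked between 326 and 399 among all annotated symbols in those libraries and 805 in yolk sac replicate 2. The log2 difference was 0.34 (SE 0.24, 95% interval -0.22 to 0.90, limma adjusted p = 0.711). Without yolk sac replicate 2 it was 0.06 (SE 0.15, 95% interval -0.28 to 0.40, adjusted p = 0.96), so differences between a fall of 0.28 and a rise of 0.40 on the log2 scale remain possible. The Klf2 level of yolk sac replicate 2 was 55.5% of the mean of the other yolk sac libraries, and those of Klf4 and Piezo1 were 49.7% and 54.2%. Genes at least 5 times higher in that library than in yolk sac replicate 3 made up 7.44% of its annotated TPM. With libraries rescaled without those genes, the Klf2 difference was again 0.34, and that of Piezo1 was 0.63. The part of the endoderm and red cell transcripts in the low values of that library was not tested.

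Klf4 varied widely among the caudal replicates. Its level was 13.9, 25.0 and 53.2 TPM in caudal replicates 1, 2 and 3, a 3.82-fold range within a tissue, and 39.8, 18.3 and 34.0 TPM in yolk sac replicates 1, 2 and 3. The caudal values enclosed the whole yolk sac range, and both means were 30.7 TPM (SD 20.2 in the caudal cells and 11.1 in the yolk sac, n = 3 each). The log2 difference was -0.13 (SE 0.47, 95% interval -1.20 to 0.94, limma adjusted p = 0.952), an interval that leaves room for changes in either direction. Its sign depended on single libraries. The difference was 0.31 when caudal replicate 1 was left out, 0.08 when yolk sac replicate 1 was, and -0.62 when caudal replicate 3 was. Klf4 and Piezo1, neighbours in the order of levels, changed places between libraries. Klf4 was below Piezo1 in caudal replicates 1 and 2 and above it in caudal replicate 3 and all 3 yolk sac libraries. No exon of another gene overlaps Klf2 (ENSMUSG00000055148.7, chromosome 8, 72319033 to 72321656, plus strand) or Klf4 (ENSMUSG00000003032.8, chromosome 4, 55527143 to 55532466, minus strand).

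The bases before the start of Klf2, Klf4 and Piezo1 are shown because MEF2 factors are known to act on the Klf2 promoter and because a hexamer, GAGACC, is known as a shear stress response element. Each line holds 220 bases (250 to 31 before the RefSeq start, GRCm38.p6, gene strand, 5′ to 3′), and no annotated exon lies in them. Promoter entries matched 4 of the 5 genes, Nos3 being the one not matched. Capitals mark a match on either strand to the MEF2 consensus of 10 letters or to GAGACC. The windows are chr8:72318812-72319031 (plus strand) for Klf2, chr4:55532506-55532725 (minus strand) for Klf4 and chr8:122551360-122551579 (minus strand) for Piezo1.
Klf2: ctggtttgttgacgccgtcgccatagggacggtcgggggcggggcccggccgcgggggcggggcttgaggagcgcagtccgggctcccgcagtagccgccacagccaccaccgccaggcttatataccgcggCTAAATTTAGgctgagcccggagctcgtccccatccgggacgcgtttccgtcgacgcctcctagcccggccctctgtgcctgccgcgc
Klf4: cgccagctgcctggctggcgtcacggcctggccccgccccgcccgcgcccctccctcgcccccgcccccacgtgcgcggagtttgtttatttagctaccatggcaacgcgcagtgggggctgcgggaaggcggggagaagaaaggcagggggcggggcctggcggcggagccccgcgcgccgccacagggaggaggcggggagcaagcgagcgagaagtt
Piezo1: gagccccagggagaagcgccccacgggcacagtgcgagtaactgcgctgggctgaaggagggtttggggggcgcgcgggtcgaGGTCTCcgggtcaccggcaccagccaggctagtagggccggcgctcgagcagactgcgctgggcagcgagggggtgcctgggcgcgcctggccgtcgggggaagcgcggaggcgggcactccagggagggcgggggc

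The match in the Klf2 window, CTAAATTTAG, begins 118 bases before the start and lies at positions 72318944 to 72318953 of chromosome 8. A match to the MEF2 consensus was found in 2.6% of 32851 windows of the same length over all genes. The Piezo1 window holds GGTCTC, which is GAGACC read on the other strand, beginning 167 bases before the start, and such a match was found in 12.2% of windows. The Klf4 window and both Cav1 windows hold neither set of letters. The windows of Klf2, Klf4 and Piezo1 had G or C at 71.4%, 74.5% and 75.5% of their bases, against a median of 51.8% over all windows. A match of letters is a description and does not show that a factor binds there in these cells.

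Nos3 makes nitric oxide in endothelium and is a target of Klf2. Its level was 6.76, 3.35 and 4.91 TPM in caudal replicates 1, 2 and 3 and 1.13, 0.128 and 0.851 TPM in yolk sac replicates 1, 2 and 3. Every caudal library exceeded every yolk sac library, the means being 5.01 TPM (SD 1.71, n = 3) and 0.704 TPM (SD 0.518, n = 3). The log2 difference was 1.83 (SE 0.33, 95% interval 1.08 to 2.58), with a limma adjusted p of 0.0711 and an exact permutation p of 0.1. By unadjusted p (0.00046) Nos3 ranked 106 of 16436 genes. Without yolk sac replicate 2, where Nos3 was at 12.9% of the mean of the other yolk sac libraries, the difference was 1.56 (SE 0.29, 95% interval 0.87 to 2.24, adjusted p = 0.105). Nos3 passed in 1 of its 16 alternatives, the fit with library weights (log2 difference 1.38, adjusted p = 0.0151), and its adjusted p ran from 0.0151 to 0.484 over them. It reached 1 TPM in 4 libraries, of which all 3 caudal libraries, so the filter on low values would have kept it through the caudal cells alone.

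Nos3 (ENSMUSG00000028978.12) lies on chromosome 5 (24364810 to 24384474, plus strand), and 32.3% of its exonic bases lie in exons of the antisense genes Atg9b, an autophagy gene, and Gm15587. Atg9b was at 0.720 to 1.17 TPM in the caudal cells and 0.322 to 0.983 TPM in the yolk sac. Gm15587 was at 0.614 to 0.872 TPM against 0.112 to 0.275 TPM. Both were below Nos3 in all caudal libraries. In the yolk sac Gm15587 was below it too, but Atg9b exceeded Nos3 in replicate 2 (0.322 against 0.128 TPM) and replicate 3 (0.983 against 0.851 TPM), and reads from the shared stretches cannot be told apart without strand. The other nitric oxide synthase genes, neuronal Nos1 (0.00289 to 0.027 TPM over the 6 libraries) and inducible Nos2 (0 to 0.114 TPM), were near 0.

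Cav1, which encodes the main structural protein of caveolae, was at 0.480, 0.128 and 0.150 TPM in caudal replicates 1, 2 and 3. In the yolk sac it was listed at 0.117 TPM in replicate 1, at 0.0317 TPM in replicate 3 and at 0 in replicate 2. Cav1 was therefore below 1 TPM in every library and was not tested. The lowest caudal value lay just above the highest yolk sac value, and at these levels no fold change is read from them. Cav1 (ENSMUSG00000007655.16) lies on chromosome 6 (17306335 to 17341452, plus strand), and no exon of another gene overlaps it.

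**Figure D2:**
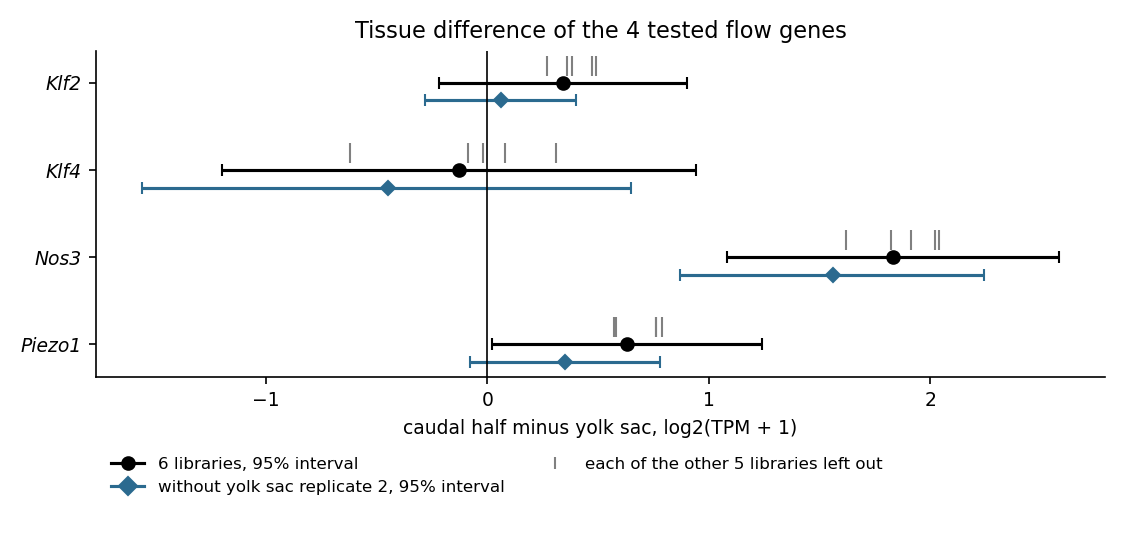
Caudal minus yolk sac level on log2(TPM + 1) for the 4 tested genes, with 95% intervals from limma for all 6 libraries (black) and without yolk sac replicate 2 (blue), and the estimates with each other library left out (grey ticks). Only the Nos3 intervals stay clear of 0 in both fits, while the Klf4 ticks fall on both sides of 0.

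The flow genes were next set against the marker lists of the same library, since endothelial and blood markers also differed between the tissues. All 16 endothelial markers had positive differences (median 1.04), of which 3 passed limma's test, Cdh5, Mmrn2 and Sox18, and all 11 blood stem and progenitor markers did (median 0.69), of which Gfi1 passed. Over all tested genes 62.0% were positive, with a median of 0.09. Without yolk sac replicate 2 the medians were 0.77 for the endothelial list, of which 2 passed, 0.29 for the blood list, of which 1 passed, and 0.02 for all genes, of which 52.4% were positive.

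Against the mean log2(TPM + 1) of the endothelial markers, Klf2 was higher in the yolk sac, although its own difference was 0.34 toward the caudal cells. It stood 2.38, 2.60 and 2.55 log2 units above the endothelial mean in caudal replicates 1, 2 and 3. In yolk sac replicates 1, 2 and 3 it stood 3.42, 3.64 and 3.59 units above it, a difference of -1.04 with no overlap. Piezo1 had the same order, with caudal values of 0.42, 0.85 and 0.45 and yolk sac values of 1.15, 1.41 and 1.40 (difference -0.75). Nos3 kept the opposite order, with caudal values of -2.03, -2.46 and -2.04 and yolk sac values of -2.68, -2.51 and -2.69 (difference 0.45). With a pseudocount of 0.1 the Nos3 difference was 1.34, since the constant added compresses low values. For Klf4 the caudal values were -1.09, 0.12 and 1.16 and the yolk sac values 1.58, 1.59 and 1.56. Relative to these markers the caudal libraries spread more widely for Klf4 (SD 1.12) than the yolk sac libraries (SD 0.02). With a pseudocount of 0.1 the yolk sac values were 1.75, 1.97 and 1.79 (SD 0.12), replicate 2 being the highest, and the caudal SD was 1.17.

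Against the blood stem and progenitor markers, the differences were -0.70 for Klf2, -0.41 for Piezo1 and 0.79 for Nos3, each without overlap, and Klf4 overlapped (difference -1.17). Exact two-sided permutation p-values were 0.1 for 7 of the 8 comparisons and 0.4 for Klf4 against the blood markers. Adjusted over the 8 by Benjamini-Hochberg they were 0.114 and 0.4, and the design cannot reach 0.05. These differences combine that of the gene with that of the list. The genes' own differences were 0.34 for Klf2 and 0.63 for Piezo1, both toward the caudal cells. Their negative values here therefore come from subtracting lists that were higher in the caudal cells.

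**Figure D3:**
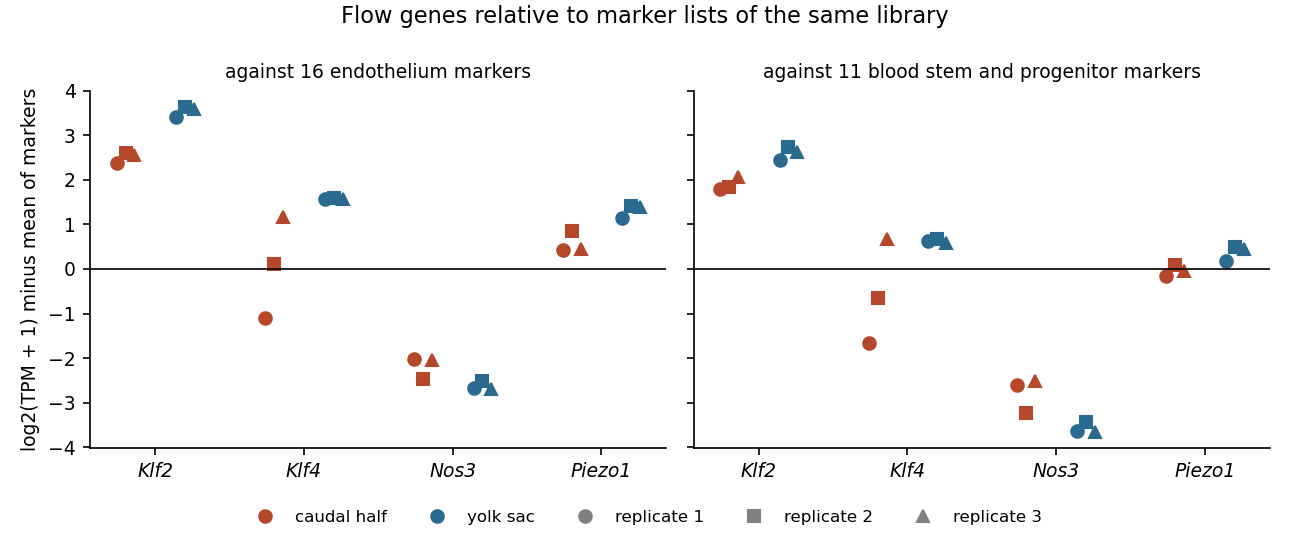
Level of 4 flow genes on log2(TPM + 1) minus the mean of 16 endothelial (left) or 11 blood stem and progenitor markers (right) in the same library, 1 point per library. Klf2 and Piezo1 lie higher in the yolk sac in both panels, Nos3 lies higher in the caudal cells, and the Klf4 points of the yolk sac lie close together with the pseudocount of 1 used here (SD 0.02 on the left, and 0.12 with a pseudocount of 0.1).

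Of 22 other genes for sensors of flow, 20 were tested and 17 were positive (median 0.43, against 62.0% positive and a median of 0.09 over all genes). By limma 1 rose in the caudal cells (0.347% of all genes did) and 19 did not pass. At an unadjusted p under 0.05 there were 9, against 9.63% over all genes. Without yolk sac replicate 2, 17 were positive (median 0.31) and 1 passed. The gene that rose was Cdh5, whose product VE-cadherin belongs to the junctional sensing complex with Pecam1 and Kdr. Cdh5, Pecam1, Kdr and Eng are also among the 16 endothelial markers above, so the lists are not separate observations. Caudal libraries averaged 97.6 TPM of Cdh5 and yolk sac libraries 16.6 TPM, which differ by 2.53 on the log2 scale (SE 0.26, limma adjusted p = 0.0114, and 0.00779 without yolk sac replicate 2). Acvrl1, a receptor for BMP9, was at 2.55 against 0.335 TPM (adjusted p = 0.0923), and it was tested only because the caudal libraries reached 1 TPM. Notch1, which also responds to flow, was at 28.9 against 11.5 TPM (adjusted p = 0.167), and the integrin gene Itga5 at 36.9 against 21.9 TPM (adjusted p = 0.172). Piezo2, the relative of Piezo1 known from sensory neurons, was below 1 TPM in all libraries (0.0102 to 0.65 TPM).

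The route that leads from the sensors to Klf2 and Klf4 was expressed in both tissues. Listed were 17 genes of the MEKK3, ERK5 and MEF2 route and the CCM complex that restrains it. Of these, 15 were tested, 9 were positive (median 0.41) and 0 passed by limma. At an unadjusted p under 0.05 there were 2, Hdac7 and Map3k3. The shares over all tested genes were 62.0% positive and 9.63% at such a p. Without yolk sac replicate 2, 10 were positive (median 0.14), against 52.4% over all genes. Map3k3, the gene of MEKK3, was at 33.7, 31.3 and 23.1 TPM in the caudal cells and 22.2, 19.2 and 19.8 TPM in the yolk sac, without overlap (adjusted p = 0.495). Hdac7, a repressor of MEF2 factors, was at 20.0 against 7.86 TPM on average (adjusted p = 0.475), Mef2a at 18.3 against 12.6 TPM (adjusted p = 0.55) and Heg1, the receptor that anchors the CCM complex, at 6.85 against 4.13 TPM (adjusted p = 0.578). Mapk7, the gene of ERK5, was at 4.43 to 7.33 TPM in the caudal cells and 3.24 to 4.59 TPM in the yolk sac.

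Among the Krüppel-like factors, Klf2 was second in level to Klf6 in every library. Klf6, a widely expressed early response factor, was at 177 to 214 TPM in the caudal cells and 111 to 202 TPM in the yolk sac (limma adjusted p = 0.789), and like Klf2 it was lowest in yolk sac replicate 2. Of 15 family members other than Klf2 and Klf4, 10 were tested, 8 were positive (median 0.22) and 0 passed by limma, with 1 at an unadjusted p under 0.05. Among all tested genes 62.0% were positive and 9.63% had such a p. When yolk sac replicate 2 was left out, 6 were positive (median 0.24). The gene at an unadjusted p under 0.05 was Klf3, a repressor, at 14.3 against 9.21 TPM (adjusted p = 0.469). Klf7 (8.21 against 5.95 TPM, adjusted p = 0.594), Klf13 (20.1 against 16.3 TPM, adjusted p = 0.729) and Klf10 (24.0 against 19.8 TPM, adjusted p = 0.732) came next.

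Of 18 genes listed here as raised by laminar flow in endothelium, 13 were tested, 10 were positive (median 0.85) and 1 rose. Over all tested genes 62.0% were positive (median 0.09) and 0.347% rose. In this list 8 had an unadjusted p under 0.05 by limma, against 9.63% over all genes. Without yolk sac replicate 2, 9 were positive (median 0.46) and 1 rose. That gene was Gja5, an arterial gap junction gene, at 14.0, 12.5 and 8.74 TPM in caudal and 0.076, 0.0624 and 0.0419 TPM in yolk sac libraries (log2 difference 3.56, SE 0.24, limma adjusted p = 0.00309). It met the filter through the caudal libraries alone, so a difference toward them was a condition of its being tested, and its p is given as a description. Gja4, another arterial gap junction gene, was at 14.4 against 2.40 TPM (adjusted p = 0.0734). Thbd, the anticoagulant receptor thrombomodulin and a target of Klf2, was at 11.4 against 4.61 TPM (adjusted p = 0.23), and the sphingosine receptor gene S1pr1, another target, at 18.9 against 10.4 TPM (adjusted p = 0.312). Nfe2l2 (26.2 against 38.2 TPM, adjusted p = 0.524) and Cd59a (3.49 against 10.2 TPM, adjusted p = 0.547) lay the other way, without overlap. Tek and Tie1 of this list are also among the 16 endothelial markers above.

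Of 15 genes known to be lowered by laminar flow, 9 were tested, 4 were positive (median -0.13) and 0 passed by limma, with 3 at an unadjusted p under 0.05. Of all tested genes 62.0% were positive and 9.63% had such a p. Leaving out yolk sac replicate 2 gave 6 positive genes (median 0.15). The 3 genes at an unadjusted p under 0.05 were all toward the caudal cells. Edn1, the gene of the vasoconstrictor endothelin-1, was at 10.0, 6.56 and 7.99 TPM in the caudal cells and 1.56, 0.526 and 2.14 TPM in the yolk sac (adjusted p = 0.0533). Cxcr4, a chemokine receptor, was at 11.2 against 1.60 TPM (adjusted p = 0.0594), and Cyr61, a matrix protein gene, at 13.1 against 5.42 TPM (adjusted p = 0.475). The adhesion receptor gene Icam1 lay the other way, at 26.3 against 31.3 TPM (adjusted p = 0.701).

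**Figure D4:**
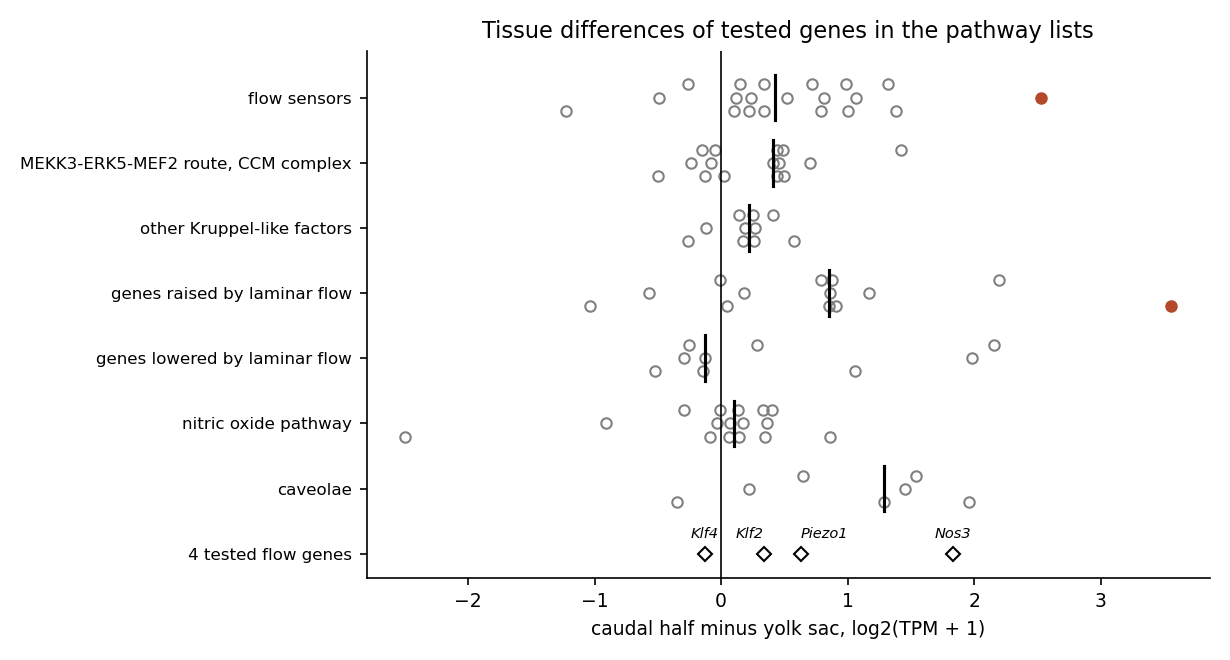
Caudal minus yolk sac level on log2(TPM + 1), 1 circle per tested gene of 7 pathway lists, with the 4 tested flow genes as diamonds at the bottom. Vertical bars are list medians, and vertical jitter has no meaning. Filled circles passed limma's test at an adjusted p under 0.05 (Cdh5 among sensors and Gja5 among genes listed as raised by flow). Gja5 met the filter on low values through the caudal libraries alone.

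The nitric oxide pathway beyond Nos3 was centred near the median of all genes. Of 21 genes, 16 were tested and 10 were positive (median 0.10), against 62.0% positive over all genes. Without yolk sac replicate 2, 7 were positive (median -0.05), against 52.4% over all genes. With all 6 libraries 0 passed by limma, and 1 had an unadjusted p under 0.05 (9.63% over all genes). That gene was Ddah2, whose product is related to the enzyme that breaks down an inhibitor of nitric oxide synthases, at 17.2 against 8.55 TPM (adjusted p = 0.494). Ass1 and Asl, which remake the substrate arginine, were at 90.8 and 20.6 TPM in yolk sac replicate 2 and at most 6.26 and 5.17 TPM elsewhere. Nostrin, which moves the synthase off the membrane, was likewise at 9.50 TPM in that library and at most 1.86 TPM elsewhere. The library with these values is the one richest in endoderm transcripts, whose part in them was not tested. Gucy1b3, a subunit of the nitric oxide receptor guanylate cyclase, was at 1.84 against 1.25 TPM (adjusted p = 0.694).

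Of 9 caveola genes other than Cav1, 7 were tested and 0 passed by limma. The difference was positive for 6 of them (median 1.29, against 62.0% positive and a median of 0.09 over all genes), and 4 had an unadjusted p under 0.05 (9.63% over all genes). Pacsin2, a membrane-bending protein gene, lay the other way, at 19.8 against 26.5 TPM (log2 difference -0.35, adjusted p = 0.731). Its yolk sac level was 21.4, 38.4 and 19.7 TPM in replicates 1, 2 and 3, and the difference was -0.06 without replicate 2. The count of positive genes was again 6 without yolk sac replicate 2 (median 1.13). Ptrf, the gene of the coat protein cavin-1, was at 16.3, 15.3 and 10.4 TPM in the caudal cells and 5.59, 2.46 and 4.80 TPM in the yolk sac (adjusted p = 0.102). Prkcdbp, the gene of cavin-3, was at 17.0 against 5.90 TPM (adjusted p = 0.125), Ehd2, an ATPase of the caveolar neck, at 2.71 against 0.519 TPM (adjusted p = 0.0594, tested only because the caudal libraries reached 1 TPM), and Plvap, a diaphragm protein of caveolae and fenestrae, at 24.8 against 5.82 TPM (adjusted p = 0.0646). Cav2, the caveolin that assembles with caveolin-1, was at 2.46, 0.700 and 1.89 TPM in the caudal cells and 1.23, 0.640 and 1.96 TPM in the yolk sac. Those values overlapped (adjusted p = 0.874) and exceeded Cav1 in every library.

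For each flow gene, the 3 protein-coding genes with the most similar pattern over the 6 libraries were sought among 7521 or 7522 autosomal genes averaging 5 TPM or more, by Pearson's r of log2(TPM + 1). With 6 libraries and so many genes, values near 1 are found for any pattern, so the names are a description. For Klf2 they were Itpkb (r = 0.999), Elp6 (0.997) and Gab2 (0.995), each lowest in yolk sac replicate 2. For Piezo1 they were Maml3 (0.996), Ifitm3 (0.993) and Soga1 (0.993). For Nos3 they were Zfp69 (0.999), Zfp729a (0.998) and Kansl1l (0.995), and for Cav1 they were Prpf39 (0.997), Angpt2 (0.995) and Usp12 (0.995).

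The genes nearest to Klf4 were Hmgcs1 (r = 0.996), Insig1 (0.991) and Idi1 (0.964). Hmgcs1 was at 82.6, 112 and 164 TPM in caudal replicates 1, 2 and 3 and 135, 91.2 and 132 TPM in yolk sac replicates 1, 2 and 3. Both genes were lowest in caudal replicate 1 and highest in caudal replicate 3. Hmgcs1 and Idi1 encode enzymes of sterol synthesis and Insig1 a regulator of it.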

How the data were processed

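RNA sequencing of 6 libraries (3 per tissue) was analysed. Per the submitters' processing notes, reads were handled with HISAT2 and StringTie on mm10. Neither tool versions nor the annotation used nor the strand setting is given in the sources used here. Cells had been released with 0.125% collagenase for 1 h at 37 °C, per the labels' protocols. The deposited tables give TPM, treated as a signal scaled by the authors library by library. Assembled loci summed to 1000000 TPM, and annotated genes, which alone were used, to between 555230 and 684549 TPM. They comprised 47643 gene IDs and, after 27 symbols turned into dates were restored, 47517 symbols. Of the IDs, 47224 were found in GENCODE M21 (GRCm38), the source of coordinates. Older symbols (Ptrf, Prkcdbp, Cyr61, Gucy1b3) are those of the tables.

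Tissues were compared on log2(TPM + 1) with limma 3.58.1 (R 4.3.3, trended empirical Bayes, two-sided) over the 16436 genes that reached 1 TPM in 3 libraries or more. The Benjamini-Hochberg adjustment ran over all of them, with 0.05 as threshold. Single values had exact permutation tests (scipy 1.17.1). The fit was tested on simulated data. All 5 members are named, with up to 4 genes per pathway list by smallest p and 3 genes of most similar pattern per member. Genes outside that rule (such as Klf6, Mapk7, Cav2, Pacsin2, Mrc1, Nostrin and Piezo2) were added after their values were seen. Members and lists were chosen with earlier results of these data known. Alternatives were other pseudocounts, filters and scalings, a replicate block, library weights and leaving out libraries. No depth being known, no counting interval is given.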

Additional observations from a re-analysis of the deposited data

How the results depend on the processing

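Of the flow genes, Klf2 and Piezo1 kept a positive difference that did not pass in any of 17 alternatives (0.06 to 0.49 and 0.32 to 0.79). Nos3 stayed positive in all 16 (0.80 to 2.93) and passed only with library weights (1.38), where caudal replicate 2 (weight 4.44) and yolk sac replicate 3 (3.24) counted most. Klf4 ran from -0.62 to 0.31 and changed sign without caudal replicate 1 (0.31) or yolk sac replicate 1 (0.08). The cause was not tested. For Cav1, below 1 TPM everywhere and not tested, the difference moved with the constant added (0.25, and 1.18 with a pseudocount of 0.1) and is not read as a fold change. Over all genes, 57 were called higher in caudal and 6 in yolk sac cells. These counts were 37 and 2 with a pseudocount of 5, 1 and 0 without a filter, 8 and 0 when only genes averaging 10 TPM were kept, 774 and 182 with library weights, and 13 and 0 with yolk sac replicates 1 and 2 both left out. Leaving out 1 library gave 2 to 55 and 0 to 6, with 2 and 0 without caudal replicate 3, 5 and 0 without caudal replicate 1, 19 and 1 without caudal replicate 2, and, when yolk sac replicates 1 or 3 were left out, 17 and 1 or 16 and 2. The deviations of same-numbered libraries from their group means correlated at -0.021 to 0.019, and those of differently numbered ones at -0.029 to 0.034. From 3 libraries per group, such values cannot tell whether same-numbered libraries share embryos or litters. With the replicate block limma passed 0 and 0 genes, 1611 having an unadjusted p under 0.05, and Nos3 kept its difference of 1.83 (adjusted p = 0.106). The scalings by median centring and without genes raised in yolk sac replicate 2 were chosen after seeing the data.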

Other observations

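After the likeness of Klf4 to Hmgcs1 and Insig1 had been seen, 12 genes of sterol synthesis and its control were set beside it. Their Pearson's r with Klf4 over the 6 libraries was 0.925 for Cyp51 and 0.895 for Sqle, but -0.075 for Fdps, -0.104 for Fdft1, -0.511 for Lss and -0.524 for Mvd. The list was thus split. By likeness to Klf4 among 7521 genes, Hmgcs1, Insig1, Idi1, Cyp51 and Sqle ranked 1, 2, 3, 7 and 10. All other genes of the list ranked 1170 or further down. Of those, Fdps, Fdft1 and Lss were highest in yolk sac replicate 2 (64.0, 35.6 and 21.5 TPM), while Mvd was not. A pattern shared by the list was not tested. Among 13 immediate early and heat shock genes, also listed afterwards because Klf2, Klf4 and Klf6 are known to respond to tissue dissociation, Fosb had r = 0.927 with Klf4, while Fos (0.503), Jun (0.156) and Egr1 (0.276) had lower values. These 13 genes summed to 2166 to 2965 TPM in the caudal cells and 1305 to 2493 TPM in the yolk sac. None of them passed limma's test between tissues, and 3 had an unadjusted p under 0.05 (9.63% over all genes). The part of dissociation in the levels of Klf2 and Klf4 was not tested.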
